A study of Rattus norvegicus albus with 6 samples.

Results

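Axon guidance cues are cell-surface and secreted proteins first known for steering nerve fibres, and they also act between mesenchymal, vascular and immune cells. The genes described here are those whose symbol is a semaphorin, ephrin, netrin, Slit or FLRT, or one of the plexin, neuropilin, Eph, UNC5 and Robo receptors, followed by a number and at most 1 letter, with the probe set of the highest mean standing for a gene. The rule found 57 of the 14322 named genes. Unc50 matched by its letters alone, encodes no UNC5 receptor and was set aside, which left 56 guidance genes. It differed by 0.04, −0.18 and 0.05 from control in the 3 treatments, so no count of genes 1.5-fold higher or lower would move with it. Unc50 did lie above all controls on Ad.DKK-1 and below all of them on ICG-001. Family members without a probe set of their own symbol alone were not analysed here.

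The cells were primary hepatic stellate cells of rats, the vitamin A storing pericytes of the liver that become matrix-producing myofibroblasts, cultured on plastic for 7 days in low glucose medium with 10% serum. The Ad.DKK-1 culture received an adenovirus for DKK-1, a secreted protein that blocks Wnt co-receptors, and the Ad.GFP culture a virus for green fluorescent protein. Both were used at a multiplicity of infection of 200 for 24 h with 5% serum and then kept serum-free for 24 h more. ICG-001, at 10 µM, targets the β-catenin coactivator CBP, and FJ9, at 200 µM, targets the contact of Frizzled with Dishevelled. Each compound acted for 24 h in medium free of serum, as did its own vehicle. Every 1 of the 6 arrays carried RNA pooled over 3 to 4 rats, so a group is 1 array and the spread between animals is not seen. The series asks which genes canonical Wnt signalling controls in these cells.

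Semaphorins signal through plexins, and most class 3 members need a neuropilin as the binding partner. Ephrins are anchored in the membrane and bind Eph receptor tyrosine kinases, so that both the ligand cell and the receptor cell receive a signal. Netrins bind DCC, neogenin and UNC5 receptors, Slits bind Robo receptors, and FLRT proteins bind UNC5 receptors and latrophilins. These systems set adhesion, the cytoskeleton and cell migration, and several of them have been studied in stellate cells and in liver fibrosis.

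All values are log2 expression values made with RMA, and a difference is the treated array minus its own control on that scale. A gene is counted as higher or lower where it lies at least 1.5-fold away, a log2 difference of 0.58. Brightness depends on the probes, so levels are compared between arrays and not between genes. The array medians over all probe sets ran from 7.01 to 7.28. Dkk1 read 6.01 on Ad.DKK-1 and 5.85 on Ad.GFP, and the labels do not name the species of the gene in the virus, so its level is no check of the labels. Of 12 measured stellate cell markers 11 passed the level filter, among them Pdgfrb (11.9 to 12.6), Reln (10.6 to 12.3) and Col1a1 (12.6 to 13.0). Of 5 measured endothelial markers, Tek (6.38 to 8.19) and Tie1 (6.40 to 7.42) passed the filter level of 6.39, while Cdh5 (4.57 to 5.86), Lyve1 (5.60 to 6.33) and Emcn (5.09 to 6.38) did not. Of 10 macrophage and Kupffer cell markers, Cd14 (9.69 to 11.6), Cd68 (7.26 to 8.44), Lyz2 (6.53 to 8.19) and Csf1r (5.74 to 7.33) passed, and the Kupffer cell marker Clec4f (4.99 to 6.17) was among the 6 that did not.

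Of the 56 guidance genes 45 passed the filter, which leaves out the 30% of genes with the lowest mean over the arrays. The 11 others had means from 5.21 to 6.27 and are given at the end. Flrt3 passed only through the array on which it was high, since its mean without that array was 6.08. The comparisons below also hold 10025 genes in all as a background.

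Guidance genes lay mostly below their control. Under Ad.DKK-1, 24 of the 45 lay 1.5-fold away, beside 35.2% of all genes. Of these 20 were lower and 4 higher, where 20.8% of all genes were lower and 14.5% higher. With FJ9 it was 17, beside 26.4%, of which 16 were lower and 1 was higher, against 14.8% and 11.6% of all genes. ICG-001 placed 20 of them 1.5-fold away, beside 25.7%, split into 12 lower and 8 higher, against 13.1% and 12.6%. Between the vehicle arrays, FJ9's minus ICG-001's, 6 differed by 1.5-fold, beside 7.64%, of which 3 were lower and 3 higher, against 5.2% and 2.44%. The median difference of the 45 was −0.49 under Ad.DKK-1, −0.17 with ICG-001 and −0.30 with FJ9, beside −0.07, 0.01 and 0.01 over all genes. Centring the arrays on their medians moved the ICG-001 median to 0.0034 and that of all genes to 0.18. With it 11 guidance genes were lower and 9 higher with ICG-001, beside 7.52% and 22.1% of all genes, and 16 lower and 5 higher under Ad.DKK-1, beside 16.8% and 18.7%. Between the vehicles the median was −0.03. No array has a replicate, so none of these differences has a replicate check.

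**Figure D1:**
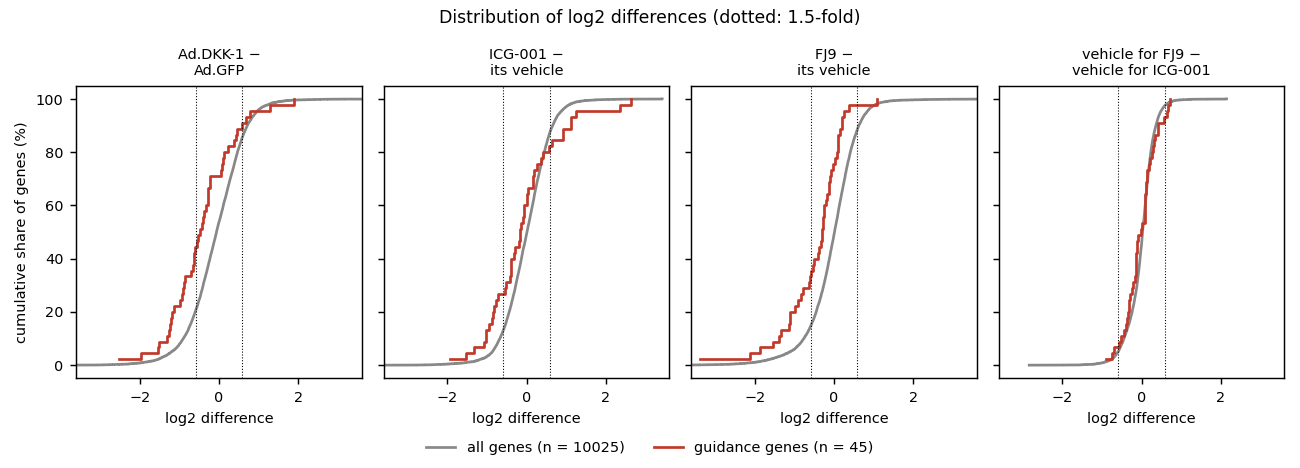
Cumulative share of genes (vertical axis, percent) at or below each log2 difference (horizontal axis) for the 45 guidance genes (red) and all 10025 genes (grey), in the 3 treatments and between the vehicle arrays. The red line lies to the left of the grey one over most of its length for Ad.DKK-1 and FJ9, where the medians were −0.49 and −0.30, and crosses it for ICG-001; dotted lines mark 1.5-fold.

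The only test the arrays allow is limma over the 3 treated and control pairs, with the pair as a block. It asks for a mean difference over the treatments, which are not replicates of each other, and so says nothing of a single treatment. The SE given with such a mean is limma's moderated SE, which draws on the variance of all genes. It does not measure the spread over the 3 pairs. It called 11 of the 45 guidance genes at a Benjamini-Hochberg adjusted p under 0.05, where 8.58% of all genes were called. Of these 9 fell, beside 5.02% of all genes, and 2 rose, beside 3.56%. The genes that fell were Ntn1, Plxna2, Slit3, Sema3e, Sema5a, Sema4g, Unc5a, Sema3a and Ephb2, and those that rose were Unc5c and Sema3c. Without the block, limma called 2 of them, Ntn1 and Plxna2, and both were also called in every other alternative fit. On 11 genes all treated arrays lay below all control arrays, beside 13.2% of all genes, and on 2 all lay above, beside 13.9%. The summed log2 level of 10 macrophage markers was 62.4 to 64.8 on the treated arrays and 69.6 to 72.6 on the controls. That of the 12 stellate cell markers was 129 to 136 on the treated arrays and 137 to 139 on the controls. Of these, Lrat fell most in each pair (10.65 against 11.96, 10.04 against 11.46 and 7.18 against 10.52). Des was higher than control under Ad.DKK-1 (9.48 against 9.17) and ICG-001 (10.50 against 10.17). Tagln was slightly higher with ICG-001 and Vim in every pair, and the remaining stellate cell markers were lower in every pair. Among the macrophage markers, Cd14 read 9.69 to 10.7 on treated and 11.1 to 11.6 on control arrays. Adgre1, under the filter, lay at 4.11 to 4.83 and 4.84 to 7.03, the 7.03 on Ad.GFP alone. Clec4f was higher under Ad.DKK-1 (5.39 against 4.99) and FJ9 (6.17 against 5.93), and Cd163 with FJ9 (5.60 against 5.39). The summed hepatocyte, cholangiocyte and neuron markers were also lower than control in each pair. The endothelial sum was level under Ad.DKK-1, and the lymphocyte sum was higher with FJ9. The part of these shifts in the results on guidance genes was not tested, and fewer cells of a type and less RNA per cell cannot be told apart in such bulk RNA.

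**Figure D2:**
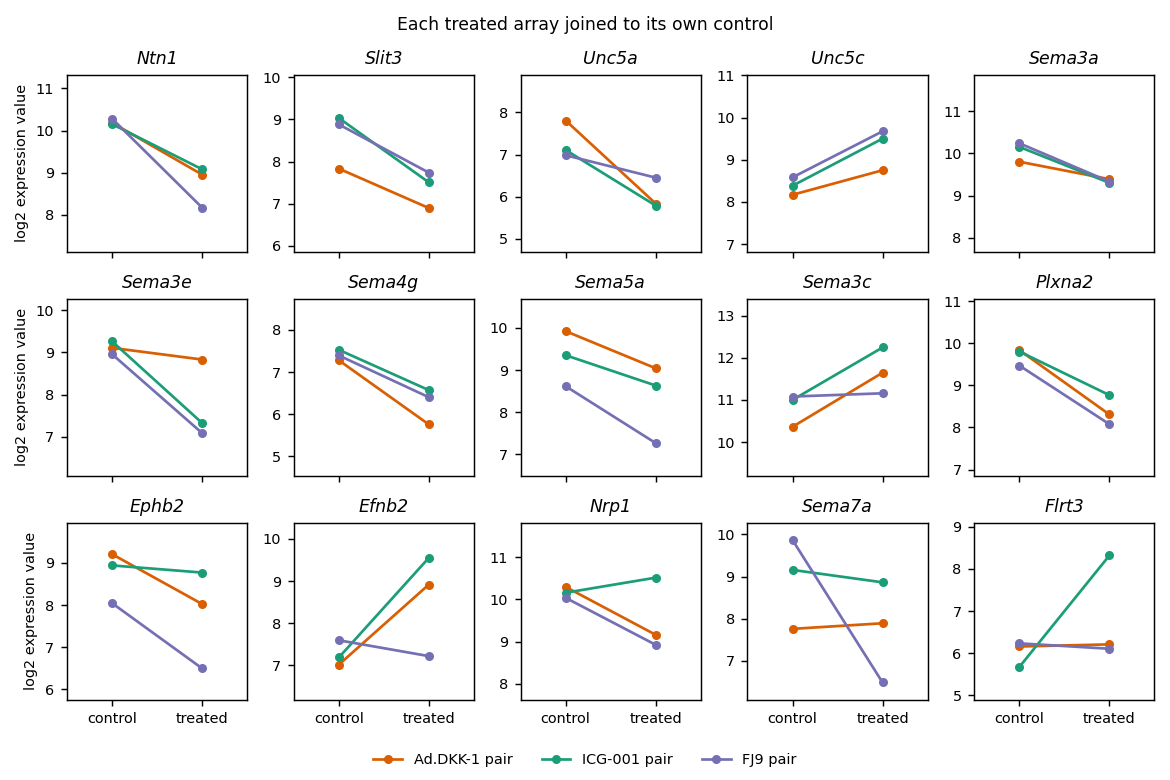
Log2 expression value (vertical axis, the same span in each panel) on the control and the treated array for 15 guidance genes, with a line joining the arrays of each treatment. All lines fall for Ntn1, Slit3, Unc5a, Sema3a, Sema3e, Sema4g, Sema5a, Plxna2 and Ephb2. Efnb2 is higher for Ad.DKK-1 and ICG-001, Flrt3 for ICG-001, and Sema7a is far lower for FJ9.

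Netrin-1, the secreted ligand of DCC, neogenin and UNC5 receptors, was lower in every treatment. Ntn1 read 10.19 on Ad.GFP, 10.16 on the vehicle for ICG-001 and 10.28 on the vehicle for FJ9, against 8.96 on Ad.DKK-1, 9.08 on ICG-001 and 8.17 on FJ9. The controls thus lay within 0.13 of each other and every treated array lay more than 2-fold below its own. The differences were −1.23, −1.07 and −2.11 in the order of Ad.DKK-1, ICG-001 and FJ9, an order kept throughout. The FJ9 array lay 4.32-fold lower, the 90th lowest of the 10025 genes. Over the pairs Ntn1 fell by 1.47 ± 0.23 (SE, limma adjusted p = 0.00137, n = 3 pairs), and the adjusted p stayed between 0.000192 and 0.0163 over 7 alternative fits. The other netrin genes differed by −0.23, −0.86 and 0.25 (Ntn3) and by −0.38, −0.14 and 0.10 (Ntn5). Ntn3's lower value with ICG-001 became −0.50 against the vehicle of FJ9 and no longer reached 1.5-fold.

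The UNC5 receptors, which mediate repulsion and, without netrin, cell death signals, did not go one way. Unc5a read 7.81, 7.11 and 6.98 on the controls, in the order of Ad.GFP, the vehicle for ICG-001 and the vehicle for FJ9, and 5.84, 5.79 and 6.45 on the treated arrays. Every treated array was below every control, with differences of −1.97, −1.32 and −0.53. Unc5a fell by 1.27 ± 0.31 over the pairs (SE, limma adjusted p = 0.0212, n = 3 pairs), though it was not called without the Ad.DKK-1 pair, without the ICG-001 pair or without the block (highest adjusted p 0.11). Unc5c was the reverse case, with controls at 8.17, 8.38 and 8.58 and treated arrays at 8.75, 9.50 and 9.68, all above the controls. Its differences of 0.58, 1.12 and 1.09 gave a rise of 0.93 ± 0.22 (SE, limma adjusted p = 0.0175, n = 3 pairs), and the first of them lay just under the 1.5-fold limit. It passed the limit with median centring (0.68) and with quantile normalization repeated (0.59). Unc5c was not called without the ICG-001 pair, without the FJ9 pair or without the block (highest adjusted p 0.104). Unc5b, the brightest UNC5 probe set, read 9.56, 9.84 and 10.50 on the controls and 9.80, 9.29 and 10.25 on the treated arrays. Its vehicle arrays differed by 0.66, more than any of its treatments (0.23, −0.56 and −0.25). The ICG-001 difference passed 1.5-fold with quantile normalization repeated (−0.62), with loess (−0.67) and against the other vehicle (−1.21).

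Among the FLRT genes, whose products bind UNC5 receptors and latrophilins, Flrt3 stood out with ICG-001. It read 6.16, 5.67 and 6.24 on the controls, 6.21 on Ad.DKK-1, 6.11 on FJ9 and 8.32 on ICG-001. A single array was thus high, and only through it did Flrt3 pass the level filter. The ICG-001 value was 6.25-fold above its vehicle (a difference of 2.64, the 5th highest of all genes) and 2.08 above the other vehicle on the log2 scale. The other differences were 0.05 and −0.13, and limma did not call the gene (adjusted p = 0.237). Flrt2 read 11.03, 11.36 and 11.57 on the controls and 10.33, 11.36 and 10.80 on the treated arrays. It was thus lower by 1.63-fold under Ad.DKK-1 and 1.71-fold with FJ9 and level with ICG-001, and the FJ9 difference fell short of 1.5-fold against the other vehicle (−0.56).

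Slit3, a secreted Robo ligand, was lower in all treatments. Its controls read 7.83, 9.03 and 8.88 and its treated arrays 6.90, 7.51 and 7.74. The groups did not overlap, although the Ad.GFP array lay more than 1 log2 unit below both vehicles. With differences of −0.94, −1.53 and −1.14, Slit3 fell by 1.20 ± 0.24 (SE, limma adjusted p = 0.00741, n = 3 pairs). It was not called without the ICG-001 pair or without the block (highest adjusted p 0.0739). Of the 3 Robo receptor genes 1 was lower in a treatment. Robo2 read 11.37, 11.72 and 11.58 on the controls and 10.45, 11.66 and 11.56 on the treated arrays, so only the Ad.DKK-1 array was low (−0.91). Robo1 differed by −0.44, 0.04 and 0.37, and Robo4, the endothelial Robo, by 0.39, −0.31 and −0.20. With loess the Ad.DKK-1 difference of Robo4 was 0.70, past 1.5-fold.

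**Figure D3:**
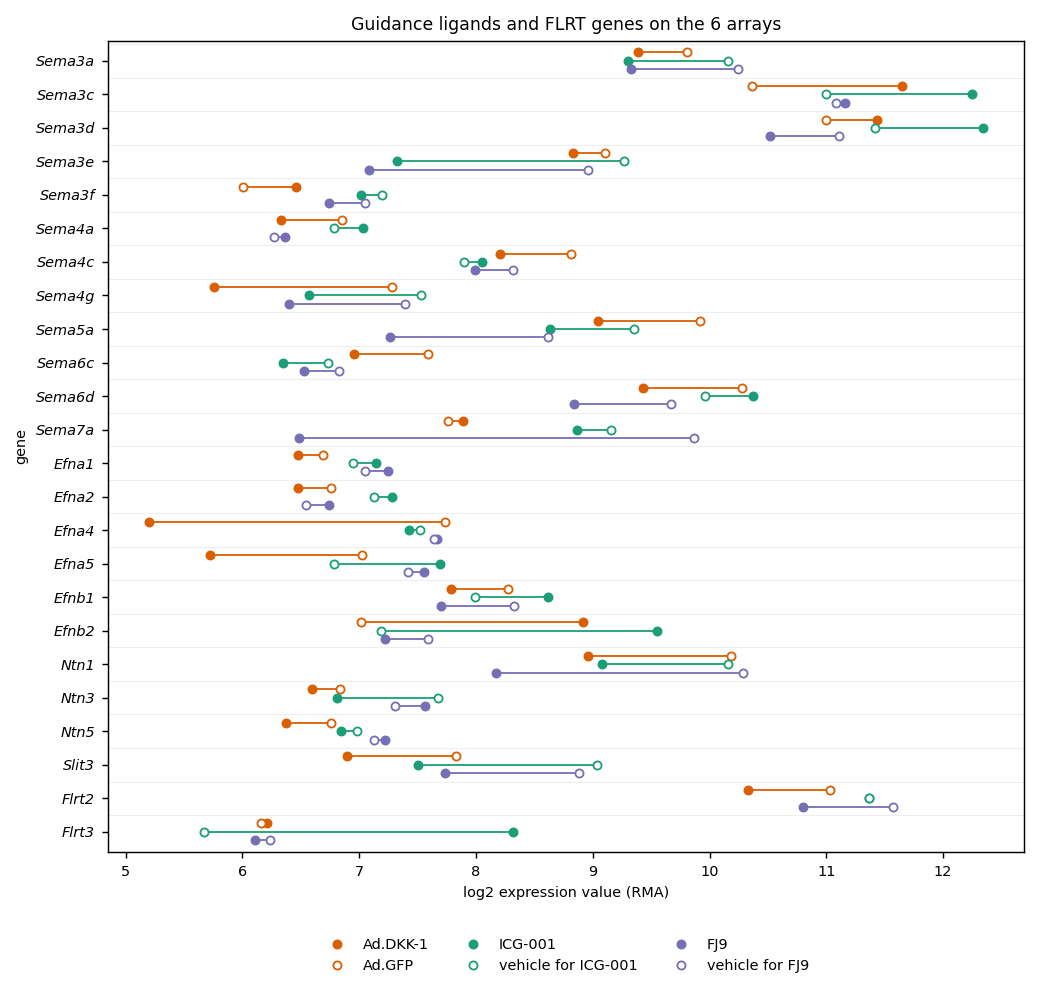
Log2 expression values (horizontal axis) of the ligands and FLRT genes past the level filter (vertical axis) on the 6 arrays, with filled points for treated arrays, open points for controls and a line joining each pair. Ntn1, Slit3, Sema3a, Sema3e and Sema4g have all filled points left of all open ones, Sema3c has them to the right, and Efna4 is low on Ad.DKK-1 alone (5.20).

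Of the 12 semaphorins past the filter, 5 were lower and 1 higher under Ad.DKK-1, beside 20.8% and 14.5% of all genes. With ICG-001 4 were lower and 2 higher, beside 13.1% and 12.6%, and with FJ9 7 and 0, beside 14.8% and 11.6%. The class 3 members, which are secreted, split among themselves. Sema3e, whose product can bind plexin-D1 without a neuropilin, read 9.11, 9.27 and 8.96 on the controls, 8.83 on Ad.DKK-1, 7.33 on ICG-001 and 7.09 on FJ9. Both compound arrays lay far below all others, with differences of −1.94 and −1.87 (3.83-fold and 3.66-fold), the 49th and 137th lowest of all genes, and Ad.DKK-1 differed by −0.28. Over the pairs Sema3e fell by 1.36 ± 0.30 (SE, limma adjusted p = 0.0121, n = 3 pairs), mostly through the compounds. It was not called without the ICG-001 pair, with median centring or without the block (highest adjusted p 0.101).

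Sema3a, the archetypal repellent that acts through neuropilin-1 and plexin-A receptors, read 9.80, 10.16 and 10.24 on the controls and 9.39, 9.30 and 9.33 on the treated arrays. All treated arrays were below all controls, with differences of −0.41, −0.85 and −0.91. Sema3a fell by 0.73 ± 0.20 (SE, limma adjusted p = 0.0378, n = 3 pairs), which was called in 2 of the 7 alternative fits. Sema3c, which binds both neuropilins, rose instead, with controls at 10.36, 11.00 and 11.08 and treated arrays at 11.65, 12.24 and 11.16. The difference was 1.28 under Ad.DKK-1 and 1.24 with ICG-001, and 0.08 with FJ9. Its rise of 0.87 ± 0.23 (SE, limma adjusted p = 0.0313, n = 3 pairs) was likewise called in 2 of 7 alternative fits (highest adjusted p 0.188). One of the 2 left out FJ9, the pair in which Sema3c differed by only 0.08. Sema3d, the brightest semaphorin probe set, read 11.00, 11.42 and 11.11 on the controls and 11.43, 12.34 and 10.52 on the treated arrays. It was higher with ICG-001 (0.92) and lower with FJ9 (−0.59), the latter just under 1.5-fold with quantile normalization repeated (−0.56) or loess (−0.56). Sema3f stayed within 1.5-fold in every treatment as deposited, and passed it under Ad.DKK-1 with loess (0.82).

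Of the 7 membrane-bound semaphorins, 5 were lower under Ad.DKK-1, 2 with ICG-001 and 4 with FJ9, beside 20.8%, 13.1% and 14.8% of all genes, and none was higher. Of the 5, Sema4c and Sema6c did not reach 1.5-fold with median centring. Sema7a, which is tied to the membrane by a lipid anchor and binds plexin-C1 and integrin β1, had the largest difference of any guidance gene. It read 7.76, 9.16 and 9.87 on the controls, 7.89 on Ad.DKK-1, 8.86 on ICG-001 and 6.49 on FJ9. FJ9 lay below every other array and 10.4-fold below its vehicle (−3.38), with a difference of −2.67 to the other vehicle. The other differences were 0.13 and −0.29, so limma over the pairs did not call the gene (adjusted p = 0.137). The controls themselves spanned 2.11, the vehicle of FJ9 being the highest.

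Sema5a, which carries thrombospondin repeats, read 9.92, 9.35 and 8.62 on the controls and 9.04, 8.63 and 7.27 on the treated arrays. Each treated array was below its own control, with differences of −0.88, −0.72 and −1.35, but the controls spanned 1.31 and the groups overlapped. Sema5a fell by 0.98 ± 0.22 over the pairs (SE, limma adjusted p = 0.0143, n = 3 pairs), and was not called with median centring, without the FJ9 pair or without the block (highest adjusted p 0.206). Its ICG-001 difference was 0.017 against the vehicle of FJ9 and −0.55 with median centring, both short of 1.5-fold. Sema4g, a ligand of plexin-B2, showed no overlap, with controls at 7.28, 7.53 and 7.39 and treated arrays at 5.76, 6.57 and 6.40. With differences of −1.52, −0.96 and −0.99 it fell by 1.16 ± 0.28 (SE, limma adjusted p = 0.0183, n = 3 pairs), not called without the Ad.DKK-1 pair, without the ICG-001 pair or without the block (highest adjusted p 0.0703). Sema6d, a plexin-A ligand, read 10.28, 9.96 and 9.67 on the controls and 9.43, 10.37 and 8.84 on the treated arrays, lower under Ad.DKK-1 (−0.85) and FJ9 (−0.83) and not with ICG-001 (0.41). Sema4c (−0.61) and Sema6c (−0.63) passed 1.5-fold under Ad.DKK-1 alone. With median centring the values were −0.52 and −0.54. Sema4c had a fainter probe set as well, which differed by −0.13 there. Sema4a stayed within 1.5-fold of its own controls, and with ICG-001 lay 0.76 above the other vehicle.

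**Figure D4:**
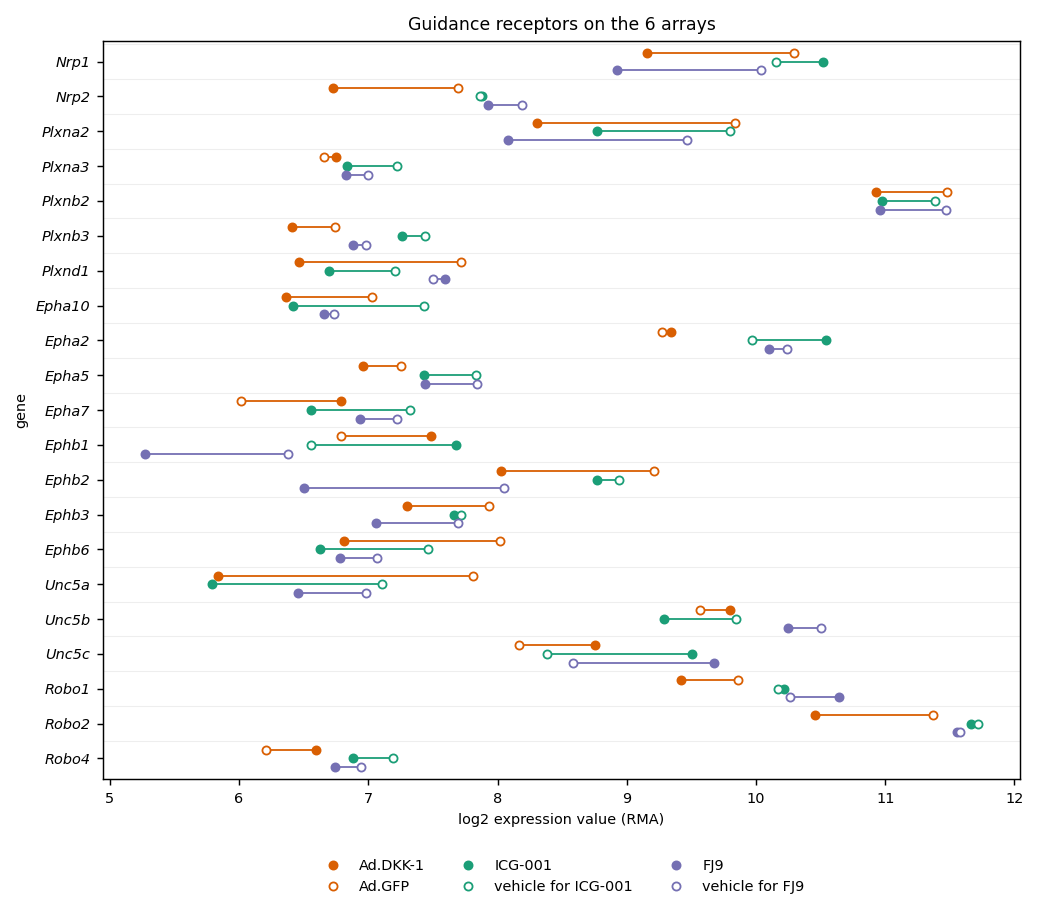
Log2 expression values (horizontal axis) of the receptors past the level filter (vertical axis) on the 6 arrays, drawn with filled points for treated arrays and open points for controls, joined by pair. Plxna2, Plxnb2, Unc5a, Ephb3, Ephb6 and Epha10 have all treated arrays left of all controls, and Unc5c has them to the right. Ephb1 and Ephb2 have their lowest points on FJ9 (5.27 and 6.50).

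Plexins and neuropilins, the semaphorin receptors, were lower or level, and none of the 7 was 1.5-fold higher in a treatment. Plxna2, which pairs with neuropilins, read 9.84, 9.80 and 9.47 on the controls and 8.31, 8.77 and 8.08 on the treated arrays. The groups did not overlap, the nearest arrays being ICG-001 and the vehicle of FJ9 (−0.70 apart), and the differences were −1.53, −1.03 and −1.39. Plxna2 fell by 1.32 ± 0.21 (SE, limma adjusted p = 0.00168, n = 3 pairs), with an adjusted p between 0.000758 and 0.0137 in the 7 alternative fits. Plxnb2, a receptor of class 4 semaphorins and the brightest plexin probe set, read 11.48, 11.39 and 11.47 on the controls and 10.93, 10.97 and 10.96 on the treated arrays. Here the controls lay within 0.09 of each other and all treated arrays were lower, with differences of −0.55, −0.42 and −0.51, which reached neither 1.5-fold nor the limma threshold (adjusted p = 0.103). Plxnd1, the Sema3e receptor, differed by −1.26, −0.51 and 0.09, and Plxna3 and Plxnb3 stayed within 1.5-fold.

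Neuropilin-1, which also binds VEGF, read 10.30, 10.16 and 10.04 on the controls, 9.16 on Ad.DKK-1, 10.52 on ICG-001 and 8.92 on FJ9. Nrp1 was thus 2.20-fold lower under Ad.DKK-1 and 2.17-fold lower with FJ9, while ICG-001 lay above all controls (0.36 over its vehicle). Limma over the pairs did not call it (adjusted p = 0.156). Nrp2 was lower under Ad.DKK-1 alone (−0.97, then 0.02 and −0.26).

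Beside Flrt3, the highest differences of any guidance gene were those of an ephrin. Efnb2, the ephrin-B of arteries and mural cells, read 7.02, 7.19 and 7.59 on the controls, 8.92 on Ad.DKK-1, 9.55 on ICG-001 and 7.22 on FJ9. It was 3.74-fold higher under Ad.DKK-1 (the 40th highest of all genes) and 5.15-fold higher with ICG-001 (the 8th highest), and 1.96 above the other vehicle on the log2 scale with ICG-001. FJ9 stayed among the controls (−0.38). The mean over the treatments, 1.30 ± 0.39, was not called (SE, limma adjusted p = 0.0557, n = 3 pairs). Efnb1, also a transmembrane ephrin, read 8.27, 7.99 and 8.32 on the controls and 7.79, 8.62 and 7.70 on the treated arrays. Its differences of 0.63 with ICG-001 and −0.62 with FJ9 both fell under 1.5-fold with the other vehicle (0.30 and −0.29).

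Of the 4 ephrin-A genes, whose products are held by a lipid anchor, 2 were low on the Ad.DKK-1 array. Efna4 read 7.74, 7.52 and 7.64 on the controls, 7.42 on ICG-001, 7.67 on FJ9 and 5.20 on Ad.DKK-1. That was 5.79-fold below Ad.GFP and the 30th lowest of all genes, against a spread of 0.22 over the controls. Efna5 read 7.03, 6.78 and 7.42 on the controls and 5.72, 7.70 and 7.56 on the treated arrays. It was 2.46-fold lower under Ad.DKK-1, and its difference of 0.91 with ICG-001 dropped to 0.28 against the other vehicle. Efna1 and Efna2 stayed within 1.5-fold of their own controls in every treatment, and with ICG-001 Efna2 lay 0.73 above the other vehicle.

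Of the 8 Eph receptors, 4 were lower and 2 higher under Ad.DKK-1, beside 20.8% and 14.5% of all genes. With median centring, quantile normalization repeated or loess, Epha10 and Ephb3 no longer reached 1.5-fold there. With ICG-001 3 were lower and 1 higher, beside 13.1% and 12.6%, and with FJ9 3 and 0, beside 14.8% and 11.6%. Ephb2, a receptor of the ephrin-B ligands, read 9.21, 8.94 and 8.05 on the controls and 8.03, 8.77 and 6.50 on the treated arrays. FJ9 lay below all other arrays, 2.92-fold under its own vehicle and with a difference of −2.44 to the other, and Ad.DKK-1 lay 2.27-fold under Ad.GFP, while ICG-001 differed by −0.17. Over the pairs Ephb2 fell by 0.97 ± 0.27 (SE, limma adjusted p = 0.0417, n = 3 pairs), called in 2 of 7 alternative fits. The vehicle arrays differed by −0.89 for this gene. Ephb1, of the same subfamily, read 6.79, 6.56 and 6.38 on the controls, and stood above them on Ad.DKK-1 (7.48) and ICG-001 (7.68) and below them on FJ9 (5.27). The differences were 0.69, 1.12 and −1.11.

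Ephb3 read 7.93, 7.72 and 7.69 on the controls and 7.30, 7.66 and 7.06 on the treated arrays, lower under Ad.DKK-1 (−0.63, and −0.54 with median centring) and FJ9 (−0.64). Ephb6, a member without kinase activity, read 8.02, 7.46 and 7.07 on the controls and 6.82, 6.63 and 6.78 on the treated arrays. The treated arrays lay below all controls, with differences of −1.20, −0.83 and −0.29, of which the ICG-001 value became −0.44 against the other vehicle. Epha10, which also lacks kinase activity, read 7.03, 7.43 and 6.74 on the controls and 6.36, 6.42 and 6.66 on the treated arrays. Its Ad.DKK-1 difference of −0.66 became −0.57 with median centring, and its ICG-001 difference of −1.02 became −0.32 against the other vehicle.

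Epha2, a receptor of ephrin-A ligands and the brightest Eph probe set, read 9.27, 9.97 and 10.24 on the controls and 9.35, 10.54 and 10.10 on the treated arrays. The ICG-001 array was the highest and the Ad.GFP array the lowest. The ICG-001 difference of 0.57 lay under 1.5-fold as deposited and passed it with median centring (0.75). Epha7 read 6.02, 7.32 and 7.22 on the controls and 6.79, 6.56 and 6.94 on the treated arrays, so every treated value lay inside the range of the controls. Against their own controls the differences were 0.77, −0.76 and −0.29. Epha5 stayed within 1.5-fold.

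**Figure D5:**
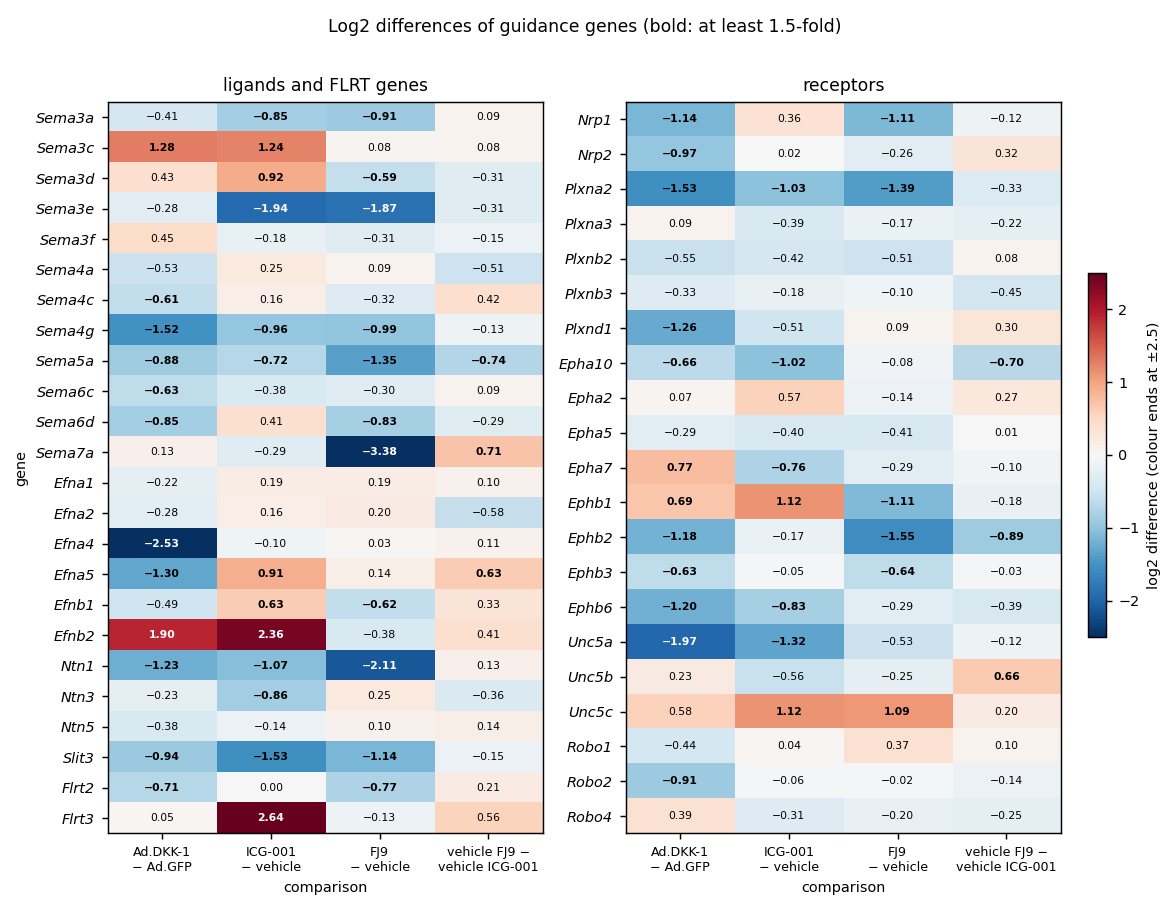
Log2 differences (colour and printed value, red higher and blue lower) of the 45 guidance genes (rows) in the 3 treatments and between the vehicle arrays (columns), with bold values at least 1.5-fold. Ntn1, Slit3, Sema4g, Sema5a and Plxna2 are bold and lower in all 3 treatments, and no gene is bold and higher in all 3.

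Across treatments, 5 guidance genes were lower by 1.5-fold in all 3, beside 3.14% of all genes, and none was higher in all 3, beside 2.41%. The 5 were Ntn1, Slit3, Sema4g, Sema5a and Plxna2, of which Sema5a left the count with median centring or with the other vehicle for ICG-001. Unc5c was higher in all 3 with median centring or quantile normalization repeated. In 2 or more treatments 15 were lower, beside 11.5% of all genes, and 4 were higher (Efnb2, Ephb1, Sema3c and Unc5c), beside 8.03%. Higher in a treatment and lower in another were 5, Ephb1 among them, beside 3.07%, and 13 passed 1.5-fold in none, beside 40.8%.

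Ligands and their receptors can be read side by side. In the netrin system Ntn1 and Unc5a were both below all controls and Unc5c above them. In the class 3 semaphorin system Sema3a, Sema3e and Plxna2 were below all controls on every treated array, and Sema3c was above them. Sema3d was higher with ICG-001 and lower with FJ9. Nrp1 was lower with Ad.DKK-1 and FJ9, and Nrp2 and Plxnd1 with Ad.DKK-1 alone. In the ephrin-B system Efnb2 was high on Ad.DKK-1 and ICG-001, where Ephb1 was higher too. Ephb2, Ephb3 and Ephb6 were lower on Ad.DKK-1, Ephb6 was lower on ICG-001, and on FJ9 Ephb1, Ephb2 and Ephb3 were lower. In the Slit system the ligand gene Slit3 was lower in all treatments, Robo2 under Ad.DKK-1 alone, and Robo1 and Robo4 in none by 1.5-fold.

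Other genes of these pathways were read from a list of 84 co-receptors, adaptors and effectors, of which 60 passed the level filter. Under Ad.DKK-1 12 were lower and 8 higher, with ICG-001 6 and 11, and with FJ9 15 and 3, beside the shares of all genes given above. Their median differences were −0.15, 0.15 and −0.24. Limma called 4 that fell and 3 that rose, beside 5.02% and 3.56% of all genes. By 1.5-fold in all 3 treatments 4 of the 60 were lower and 1 higher, beside 3.14% and 2.41% of all genes. Lower by 1.5-fold in all treatments were Flt1, the VEGF receptor 1 (−1.71, −1.26 and −1.46), Vav2, which acts downstream of Eph receptors (−0.93, −0.77 and −1.23), and Dpysl2, the collapsin response mediator CRMP2 that carries the Sema3a signal (−0.88, −0.64 and −1.03). The membrane-anchored netrin-G2 gene Ntng2 was lower too (−0.81, −0.61 and −0.59), though limma did not call it (adjusted p = 0.0759). Rnd3 was the single gene of the list that was higher in all (1.26, 0.91 and 0.84).

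The 11 guidance genes under the level filter were Efnb3, Epha1, Epha3, Epha8, Flrt1, Robo3, Sema3b, Sema4f, Sema5b, Sema6b and Slit1. They read between 4.43 and 7.01 on single arrays. Among these, Slit1 differed by −1.27 under Ad.DKK-1, and Efnb3 by 0.79 under Ad.DKK-1 and −1.18 with ICG-001. Sema4f differed by 0.65 under Ad.DKK-1 and −0.74 with ICG-001, and Sema3b by 0.86 with FJ9. Epha1, Epha8 and Sema6b passed 1.5-fold only as lower. Robo3 read 6.18 on Ad.GFP against 5.38 and 4.45 on the vehicles.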

How the data were processed

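The authors deposited log2 values for each probe set on each array. Per the submitters' processing notes they ran RMA in the Expression Console of Affymetrix; the sources used here give no version. The values were used as deposited for all 6 arrays. Of 26988 probe sets, 15092 had 1 gene symbol in the platform annotation, 323 had several and the others are unnamed here. Of the 57 genes of the rule, 56 matched RefSeq (GRCr8) by Entrez identifier, with the same symbol. The number of arrays limits the precision.

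Differences were taken within the labelled pairs and counted at 1.5-fold. Limma 3.58.1 in R 4.3.3 fitted treated against control with the pair as a block. It used eBayes with trend, which moderates the variance of each gene (2 residual degrees of freedom before moderation). Two-sided p values were adjusted by Benjamini-Hochberg over 10025 genes. The fit was also run on simulated data with a change equal in all pairs, which does not test changes that differ between treatments. Alternatives changed the scaling, filter, probe set rule, vehicle, fold and fit.

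The members and lists were chosen with earlier results of these data known. Genes named with all values are those past 1.5-fold the same way in 2 or more treatments or in opposite ways, the 4 largest differences of each treatment, and the brightest probe set of each class, 30 in all. Unc5 followed by a letter was read as matching the rule. Setting Unc50 aside and filtering on control arrays were decided after seeing the data.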

Additional observations from a re-analysis of the deposited data

Results flagged for a closer look

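In 5 guidance genes, a pair of treatments lay at least 1.5-fold from control in opposite directions. With 1 array a group this was not tested. For Ephb1 the ICG-001 and FJ9 differences were 2.23 apart, and for Efna5 those of ICG-001 and Ad.DKK-1 were 2.21 apart. The gap was 1.54 for Epha7 between Ad.DKK-1 and ICG-001, 1.51 for Sema3d between ICG-001 and FJ9, and 1.25 for Efnb1 between ICG-001 and FJ9. With the other vehicle, the ICG-001 differences of Efna5 and Efnb1 and the FJ9 difference of Efnb1 no longer reached 1.5-fold, while those of Ephb1, Epha7 and Sema3d did. With loess correction the ICG-001 differences of Efnb1 (0.54) and Epha7 (−0.52) and the FJ9 difference of Sema3d (−0.56) fell short of 1.5-fold.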

How the results depend on the processing

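At 2-fold, 12 guidance genes were counted under Ad.DKK-1, 11 with ICG-001, 10 with FJ9 and 0 between the vehicles. Under Ad.DKK-1 10 were lower and 2 higher, beside 7.91% and 3.99% of all genes. With ICG-001 it was 6 and 5, beside 3.28% and 2.89%, and with FJ9 9 and 1, beside 6.0% and 2.44%. Between the vehicles 0.83% of all genes were lower and 0.31% higher. Leaving out the lowest 50% of genes kept 23 guidance genes, of which 13 (Ad.DKK-1) and 11 (ICG-001) passed 1.5-fold, with medians of 0.0014 (ICG-001), −0.62 (FJ9) and 0.086 (vehicles). The ICG-001 median was 0.0034 with median centring, −0.0343 with quantile normalization repeated and −0.0493 with loess correction; the cause was not tested. The Ad.DKK-1 median was −0.36 without a filter, FJ9's was −0.42 against the other vehicle, and the vehicles' was 0.11 with median centring. The vehicle split of 3 higher and 3 lower became 4 and 2 with median centring or loess and 3 and 5 without a filter. All other counts of guidance genes 1.5-fold from control stayed within 1.5 times.

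Against the other vehicle, 14 of 20 guidance genes kept their ICG-001 call and 15 of 17 their FJ9 call. Sema5a turned to 0.017 with ICG-001.

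Limma called 860 genes, 422 without the pair block and 538 with median centring, where the split of 357 higher and 503 lower became 291 and 247. Of the guidance genes it called 11, 2 without the block and 6 with centring. Leaving out a pair gave 570 to 722 genes and 5 to 10 guidance genes, with the lowest of both without the ICG-001 pair.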

Other observations

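Among guidance genes past the filter, the control arrays differed for several by as much as a treatment did. Sema7a spanned 2.11 over the 3 controls, Sema5a 1.31, Epha7 1.30, Slit3 and Sema3f 1.20 each, and Ephb2 1.16. For Sema7a, Epha7, Slit3 and Sema3f the Ad.GFP array was the lowest of the controls, and for Sema5a and Ephb2 it was the highest. The narrowest spans were those of Plxnb2 (0.09) and Ntn1 (0.13). The vehicle arrays had no virus and the same serum schedule. They differed by −0.89 for Ephb2, −0.74 for Sema5a and 0.71 for Sema7a, and by −0.15 for Slit3 and Sema3f and −0.10 for Epha7. Between Ad.GFP and the vehicles, the virus, the serum schedule and the pool of animals cannot be told apart.

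Single treated arrays were also set against all 3 controls. The Ad.DKK-1 array lay below all of them for 28 of the 45 guidance genes and above all for 5, beside 41.4% and 34.6% of all genes. For FJ9 these counts were 21 and 6, beside 35.2% and 33.6%, and for ICG-001 they were 16 and 14, beside 31.4% and 33.8%.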
